A study of Mus musculus with 24 samples.

Results

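Cytochromes P450 are heme enzymes that use oxygen and NADPH to oxidise their substrates, and families 1 to 4 hold the enzymes that act on drugs, dietary chemicals, steroids and fatty acids. Members were the rows of the deposited expression table whose gene symbol reads Cyp, a family digit of 1, 2, 3 or 4 and a letter. This gave 86 of the 24532 rows, in 22 subfamilies. Among the 86 were 4 pseudogenes (*Cyp2c53-ps*, *Cyp2d37-ps*, *Cyp4b1-ps2* and *Cyp4f41-ps*) and 1 antisense RNA, *Cyp4x1os*, which is not a P450.

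The libraries came from C57BL/6 mice that, by the study design, ate chow and were 8 weeks of age, and the labels do not give their sex. Ctrl mice carried floxed *Crif1* alleles (Crif1flox/flox). LKO mice carried the same floxed alleles and Alb-Cre, a Cre recombinase driven by the albumin promoter, so that the deletion is aimed at hepatocytes. Whether other liver cells kept the floxed gene was not measured. Bulk RNA of liver, inguinal white adipose tissue (iWAT), gastrocnemius muscle (GM) and hypothalamus was sequenced from 3 Ctrl and 3 LKO samples per tissue, 24 libraries in all. No label ties a tissue to an animal, so p-values measure the spread between these libraries. Levels are FPKM, fragments scaled to transcript length and library size, as the authors deposited them, so that levels of different genes can be set side by side per length.

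P450 enzymes are most abundant in hepatocytes, and many are not spread evenly over the liver lobule. Enzymes such as CYP2E1 and CYP1A2 are made near the central vein, whereas CYP2F2 is made near the portal tract. Nuclear receptors set much of their transcription: the constitutive androstane receptor (CAR) acts on *Cyp2b* and some *Cyp2c* genes, the pregnane X receptor (PXR) on *Cyp3a* genes, PPAR alpha on *Cyp4a* genes and the aryl hydrocarbon receptor on *Cyp1* genes. In mice several members also differ between the sexes, under the control of the pattern of growth hormone secretion and STAT5. In each catalytic cycle the electrons come from cytochrome P450 reductase, encoded by *Por*, with cytochrome b5 as a helper.

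Promoters are shown for near-identical paralogs, for members whose change the results turn on and, as a well-known target of the aryl hydrocarbon receptor, for *Cyp1a1*, which was too low to be tested in liver. RefSeq promoter sequences (build GRCm38.p6, the reference form of mm10, 250 bases before to 50 bases after the start site) were matched for 67 of the 86 members. *Cyp2a4*, on chr7:26306942-26307241, plus strand, and *Cyp2a5*, on chr7:26835089-26835388, plus strand, were 97.7% identical over 301 aligned columns. In this pair the capitals mark the bases that were not identical in the alignment, and both genes rose in LKO liver.
Cyp2a4: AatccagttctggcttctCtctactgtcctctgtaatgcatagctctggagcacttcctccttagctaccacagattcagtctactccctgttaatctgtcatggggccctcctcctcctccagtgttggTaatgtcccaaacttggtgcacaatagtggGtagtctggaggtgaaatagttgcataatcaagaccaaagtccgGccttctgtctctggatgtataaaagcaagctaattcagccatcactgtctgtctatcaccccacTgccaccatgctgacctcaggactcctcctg
Cyp2a5: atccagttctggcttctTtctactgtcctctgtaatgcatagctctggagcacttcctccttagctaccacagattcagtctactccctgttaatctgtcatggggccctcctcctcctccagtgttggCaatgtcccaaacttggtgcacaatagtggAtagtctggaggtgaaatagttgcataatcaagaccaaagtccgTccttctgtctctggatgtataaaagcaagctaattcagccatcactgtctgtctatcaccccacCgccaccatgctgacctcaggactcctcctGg

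*Cyp2c68*, on chr19:39741052-39741351, minus strand, and *Cyp2c69*, on chr19:39886720-39887019, minus strand, were 91.1% identical over 305 columns, with capitals of the same meaning, and of this pair *Cyp2c69* passed the test in LKO liver.
Cyp2c68: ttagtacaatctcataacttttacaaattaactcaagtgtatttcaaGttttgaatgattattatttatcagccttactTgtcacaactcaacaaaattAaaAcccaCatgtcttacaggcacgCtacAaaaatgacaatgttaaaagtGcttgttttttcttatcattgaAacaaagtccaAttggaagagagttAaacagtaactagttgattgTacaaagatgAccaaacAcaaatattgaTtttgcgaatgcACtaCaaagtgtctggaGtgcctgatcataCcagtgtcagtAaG
Cyp2c69: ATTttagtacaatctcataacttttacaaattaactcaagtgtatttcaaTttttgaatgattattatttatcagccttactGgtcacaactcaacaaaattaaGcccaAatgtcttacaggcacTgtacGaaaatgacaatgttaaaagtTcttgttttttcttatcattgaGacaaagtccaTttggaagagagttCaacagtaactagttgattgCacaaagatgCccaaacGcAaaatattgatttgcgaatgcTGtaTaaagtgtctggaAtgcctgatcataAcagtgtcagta

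Promoters were searched on both strands for motifs of the receptors named above. DR1 and DR4 are direct repeats of AGGTCA spaced by 1 or 4 bases, taken with at most 1 mismatch in their 12 fixed bases, the xenobiotic response element core is GCGTG, and the STAT5 element is TTC and GAA spaced by 3 bases. A DR4 was found in 0.25% of all 32851 promoters and in 1 of the 74 promoters of members, that of *Cyp3a11* on chr5:145879805-145880104, minus strand, the member with the highest level in LKO liver. A DR1 was found in 0.554% of all promoters and in 5 of the 74, among them *Cyp2d40* on chr15:82764073-82764372, minus strand, the *Cyp2d* gene with the largest fall. The 5 DR1 promoters belonged to *Cyp2d40*, *Cyp3a57*, *Cyp3a59* and, with 2 promoters that overlap, *Cyp3a25*, so that 1 of the 4 genes passed the test. *Cyp4a10*, *Cyp4a14* and *Cyp4a31* were among the members without a matched promoter and were not searched for any motif. The GCGTG core was found in 32.4% of all promoters and in 15 of the 74 (20.3%), among them *Cyp1a1* on chr9:57697363-57697662, plus strand and *Cyp2b10* on chr7:25897408-25897707, plus strand. Of members that passed, it was found in 2 that were higher (*Cyp2b10* and *Cyp4f16*) and in 2 that were lower (*Cyp4f14* and *Cyp4v3*). The STAT5 element was found in 8.3% of all promoters and in 4 of the 74 (*Cyp2j11*, *Cyp2j12*, *Cyp4b1* and *Cyp4f13*), none of them of a member that passed the test. A match is a description of the letters in this window and no binding site was measured. Capitals mark the fixed bases of the motif in the following promoters.
Cyp3a11: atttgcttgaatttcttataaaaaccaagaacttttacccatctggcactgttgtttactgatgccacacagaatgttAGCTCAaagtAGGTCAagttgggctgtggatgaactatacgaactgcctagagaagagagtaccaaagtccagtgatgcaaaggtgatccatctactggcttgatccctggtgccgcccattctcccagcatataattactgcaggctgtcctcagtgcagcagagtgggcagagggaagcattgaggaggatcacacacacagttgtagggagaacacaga
Cyp2d40: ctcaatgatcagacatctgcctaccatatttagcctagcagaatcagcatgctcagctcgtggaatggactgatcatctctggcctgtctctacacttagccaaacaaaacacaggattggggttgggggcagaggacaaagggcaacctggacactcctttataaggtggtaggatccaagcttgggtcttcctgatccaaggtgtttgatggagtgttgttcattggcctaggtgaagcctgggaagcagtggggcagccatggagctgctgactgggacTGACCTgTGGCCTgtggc
Cyp1a1: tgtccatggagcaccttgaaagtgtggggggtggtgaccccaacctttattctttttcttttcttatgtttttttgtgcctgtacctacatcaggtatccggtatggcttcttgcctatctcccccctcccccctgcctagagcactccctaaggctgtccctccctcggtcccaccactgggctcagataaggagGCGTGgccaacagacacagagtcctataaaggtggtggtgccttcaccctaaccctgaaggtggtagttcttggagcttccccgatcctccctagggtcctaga
Cyp2b10: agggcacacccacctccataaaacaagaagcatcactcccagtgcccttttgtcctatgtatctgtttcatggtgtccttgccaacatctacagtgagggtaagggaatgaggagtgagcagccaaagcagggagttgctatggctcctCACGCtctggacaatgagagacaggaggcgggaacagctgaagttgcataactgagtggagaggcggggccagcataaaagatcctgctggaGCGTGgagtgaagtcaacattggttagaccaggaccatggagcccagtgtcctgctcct

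In LKO liver 8 of 13 tested *Cyp2c* genes, 8 of 9 tested *Cyp2d* genes and *Cyp2e1* were lower, and 3 of 4 tested *Cyp2a* genes, both tested *Cyp2b* genes, 4 of 6 tested *Cyp4a* genes and *Cyp3a11* were higher. Of the 86 members, 55 reached 1 FPKM in at least 3 of the 6 liver libraries and were tested. The tested *Cyp2b* genes reached this only through the LKO livers. To pass, a member had to differ by 1.5-fold or more on the log2(FPKM + 1) scale and to have a limma p under 0.05 after Benjamini-Hochberg adjustment for the 10956 genes that were tested. By this, 15 members (27.3%) were higher in LKO liver, where 23.9% of all tested genes were, and 22 members (40.0%) were lower, where 3.5% of all tested genes were. With an unadjusted p the counts were 15 (25.2% of all tested genes) and 23 (3.75%). The groups did not overlap, with LKO above Ctrl, in 21 members (38.2%, against 53.0% of all tested genes) and, with LKO below Ctrl, in 26 members (47.3%, against 8.1%). The median log2 fold change was -0.38 over the tested members and 0.33 over all tested genes. With median-ratio scaling, which places the median of all genes at -0.01, 13 members were higher (9.78% of all genes) and 29 lower (7.53% of all genes). That scaling turned the sign of 6 of the 55 members and of 0 that had passed.

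**Figure D1:**
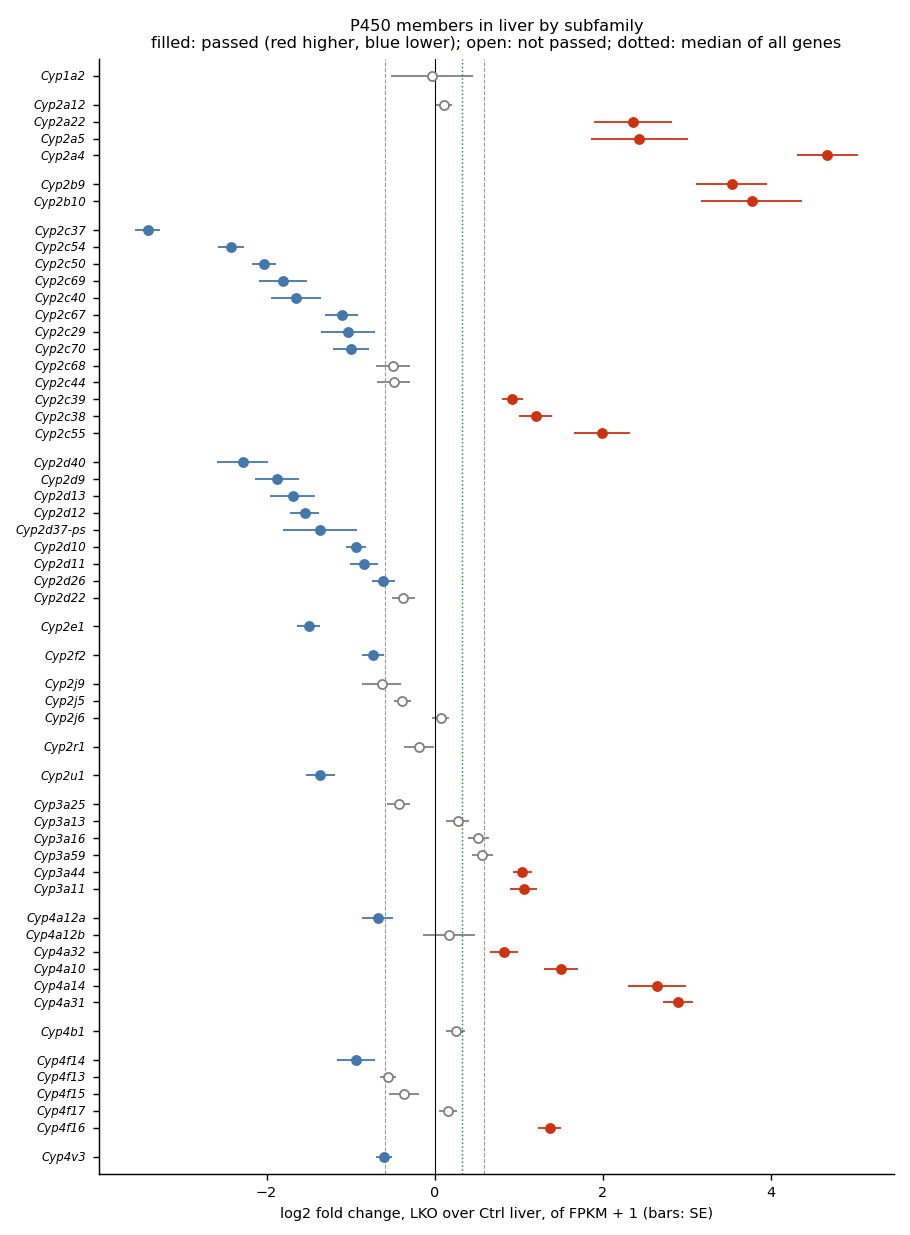
Log2 fold change of LKO over Ctrl liver on the log2(FPKM + 1) scale for the 55 tested members, grouped by subfamily, with bars for the standard error. Filled points passed the test (15 red higher, 22 blue lower), open points did not, dashed lines mark a 1.5-fold change and the dotted line the median of all tested genes, 0.33.

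These values are bulk levels, in which fewer cells of a type and less RNA per cell cannot be told apart. *Crif1*, listed as *Gadd45gip1* (NCBI Gene 102060), was at 14.6, 12.5 and 13.6 FPKM in Ctrl liver and at 5.40, 2.0 and 2.51 FPKM in LKO liver, so that LKO 1 kept the most. Of 9 hepatocyte markers measured, 1 passed as higher and 2 as lower, and their summed level was 80975 to 84121 FPKM in Ctrl and 58455 to 90713 FPKM in LKO. Of all tested genes 23.9% passed as higher and 3.5% as lower. Markers of other liver cells passed as higher in 6 of 6 for Kupffer cells (summed level 97.7 to 101 FPKM in Ctrl and 216 to 341 FPKM in LKO), 3 of 3 tested for monocytes and neutrophils (48.4 to 54.6 and 138 to 179.9 FPKM) and 5 of 5 for cholangiocytes (30.7 to 31.8 and 41.6 to 88.9 FPKM). They passed as higher in 6 of 6 for stellate cells (13.1 to 15.9 and 45.7 to 56.7 FPKM) and 2 of 5 for endothelial cells (73.0 to 74.4 and 83.1 to 135 FPKM). Of the adipocyte markers 2 of 2 tested passed as higher, *Cidec* and *Fabp4*, while *Adipoq*, *Plin1* and *Lep* were too low to be tested. For myofibres 0 of 5 markers passed, for neurons 1 of 1 tested was lower and for blood 0 of 3 passed. With median-ratio scaling the counts that passed as higher were 5 for Kupffer cells, 3 for monocytes and neutrophils, 3 for cholangiocytes, 3 for stellate cells, 1 for endothelial cells, 1 for adipocytes and 0 for hepatocytes. With that scaling 9.78% of all tested genes passed as higher. From flow cytometry the authors inferred fewer resident Kupffer cells and more infiltrated monocytes in LKO liver, so marker RNA need not follow the number of cells. The part of these shifts in the P450 results was not tested.

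Summed over the 86 members, the P450 level in FPKM was 11586, 11809 and 11220 in Ctrl liver and 9129, 10040 and 9537 in LKO liver. Every LKO liver lay below every Ctrl liver, with a ratio of the means of 0.829. The ratio was 0.904 with the deposited TPM and 0.612 with median-ratio scaling, so that its size depends on the scaling. The makeup of the sum differed as well. *Cyp2e1* made up 21.6% of the Ctrl sum and 9.23% of the LKO sum, and *Cyp3a11* 12.9% and 32.2%. The *Cyp2c* and *Cyp2d* genes stood for 20.9% and 19.9% of the Ctrl sum and 11.2% and 10.7% of the LKO sum, and the *Cyp2a* genes for 3.53% and 11.5%. *Cyp2a5* moved from rank 24 to rank 3 among the members by mean level, and *Cyp2d9* from rank 3 to rank 10.

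**Figure D2:**
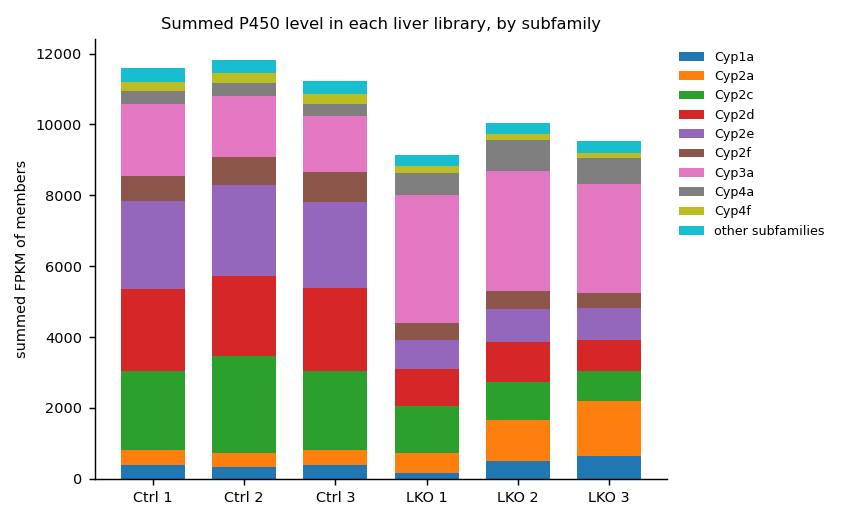
Summed FPKM of the members in each of the 6 liver libraries (bars from 0), stacked by subfamily. The Ctrl bars reach 11220 to 11809 FPKM and the LKO bars 9129 to 10040 FPKM, with less *Cyp2c*, *Cyp2d* and *Cyp2e* and more *Cyp2a*, *Cyp3a* and *Cyp4a* in the LKO bars.

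Of the 22 members that were lower, 15 had a Ctrl mean over 100 FPKM, and of the 15 that were higher, 1 did (*Cyp3a11*) and 9 were under 10 FPKM in Ctrl. Over the 55 tested members, 22 had a Ctrl mean over 100 FPKM and 16 under 10 FPKM. The filter fixed part of this contrast, since *Cyp2b9*, *Cyp2b10* and *Cyp2c39* were tested only because their LKO livers were higher.

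*Cyp2e1*, which oxidises ethanol, acetaminophen and ketone bodies, was the most abundant member of Ctrl liver, at 2467, 2575 and 2441 FPKM in the Ctrl libraries and 801, 951 and 898 FPKM in the LKO libraries. All 3 LKO livers lay far below all 3 Ctrl livers, and the spread within each group was small. The mean fell 2.82-fold (log2 fold change -1.5, SE 0.13, limma adjusted p 8.37e-04). *Cyp1a2*, which oxidises caffeine and arylamines, was at 392, 333 and 385 FPKM in the Ctrl libraries and 149.8, 488 and 647 FPKM in the LKO libraries. Its LKO livers lay on both sides of the Ctrl livers, LKO 1 below and the other two above, and it did not pass (log2 fold change -0.03, SE 0.49, limma adjusted p 0.966). Without LKO 1 its log2 fold change was 0.61 (adjusted p 0.00713), and the sign also differed with the deposited TPM. The other *Cyp1* genes were under the filter in liver: *Cyp1a1* was at 0.795, 0.729 and 0.395 FPKM in Ctrl and 0.381, 1.09 and 1.59 FPKM in LKO, and *Cyp1b1* at 0.0792, 0.134 and 0.0788 FPKM and 0.277, 0.348 and 0.426 FPKM.

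Of the 4 *Cyp2a* genes, on chromosome 7, 3 rose and *Cyp2a12* did not pass. *Cyp2a4* (NCBI Gene 13086, chr7:26307192-26315088), a steroid hydroxylase that is female-biased in mouse liver, was at 5.61, 3.91 and 2.5 FPKM in the Ctrl libraries and 91.0, 94.2 and 214 FPKM in the LKO libraries. Its lowest LKO liver was far above its highest Ctrl liver, and the mean rose 33.2-fold (log2 fold change 4.67, SE 0.37, limma adjusted p 5.30e-04). *Cyp2a5* (NCBI Gene 13087, chr7:26835339-26843264), the coumarin hydroxylase, was at 103, 72.0 and 102 FPKM in the Ctrl libraries and 178, 708 and 968 FPKM in the LKO libraries. The groups did not overlap, but LKO 1 lay near the Ctrl livers and the other two LKO livers well above. Its log2 fold change was 2.44 (SE 0.57, limma adjusted p 0.0165), it was 3.17 without LKO 1, and adjusted p was 0.0637 without Ctrl 2, 0.051 without Ctrl 3 and 0.0605 without LKO 2. *Cyp2a22*, with LKO 1 again the lowest LKO liver, went from 2.25, 2.16 and 2.14 FPKM in Ctrl to 6.22, 18.9 and 29.2 FPKM in LKO (log2 fold change 2.36, adjusted p 0.00919). *Cyp2a12*, the most abundant of the 4 in Ctrl, was at 303, 309.5 and 314 FPKM in the Ctrl libraries and 314, 349 and 334 FPKM in the LKO libraries, with all LKO livers just above all Ctrl livers and a log2 fold change of 0.11, which was -0.29 with median-ratio scaling.

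Both tested *Cyp2b* genes, which include the classic targets of phenobarbital and CAR, rose from very low levels. Both met the level filter only through the LKO livers. Genes this low in Ctrl could be tested only if they were higher in LKO, so the direction was fixed by the filter. *Cyp2b10* was at 1.27, 0.492 and 0.32 FPKM in the Ctrl libraries and 8.39, 19.6 and 57.9 FPKM in the LKO libraries. Every LKO liver was above every Ctrl liver, and LKO 3 held 6.90 times the level of LKO 1. The log2 fold change was 3.77 (SE 0.60, limma adjusted p 0.00467), with 4.40 when LKO 1 was left out and 3.08 when LKO 3 was left out. *Cyp2b9*, a female-biased gene, was at 0.975, 0.0580 and 0.0385 FPKM in the Ctrl libraries and 7.68, 13.7 and 25.5 FPKM in the LKO libraries, again with LKO 1 lowest and LKO 3 highest among the LKO livers and no overlap with Ctrl (log2 fold change 3.53, SE 0.42, limma adjusted p 0.00187). Because both were below 1 FPKM in most Ctrl livers, the fitted fold changes depend on the pseudocount, and with a pseudocount of 0.1 they were 4.93 and 5.61. *Cyp2b13*, *Cyp2b19* and *Cyp2b23* stayed at or below 0.066 FPKM in every liver library and were not tested.

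**Figure D3:**
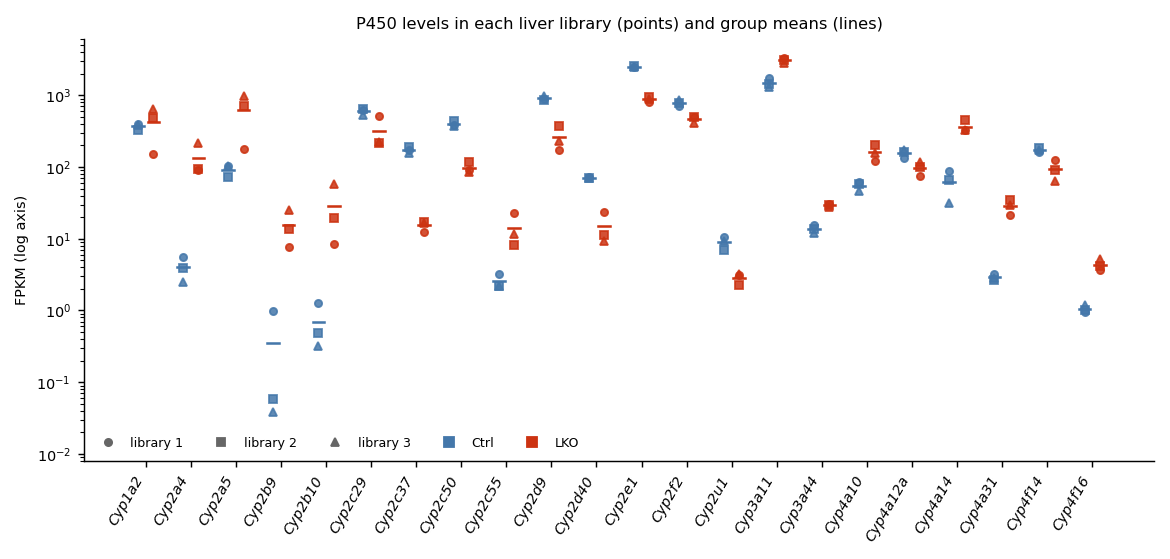
FPKM of 22 members in each liver library on a log axis, Ctrl in blue and LKO in red, with a marker shape per library number and lines at the group means. In *Cyp2a5*, *Cyp2b9*, *Cyp2b10* and *Cyp1a2* the circle of LKO 1 lies lowest among the LKO points, whereas in *Cyp2c37*, *Cyp2e1* and *Cyp3a11* the LKO points lie close together.

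The *Cyp2c* genes, which epoxidise and hydroxylate arachidonic acid and other fatty acids, split in both directions. Of the 13 tested, 8 fell, 3 rose and 2 did not pass. *Cyp2c37* (NCBI Gene 13096, chr19:39992424-40012243) showed the most negative log2 fold change of the tested members and was at 172, 193 and 155 FPKM in the Ctrl libraries and 12.3, 17.2 and 16.7 FPKM in the LKO libraries. The LKO livers lay close together and far below the lowest Ctrl liver, and the mean fell 11.2-fold (log2 fold change -3.42, SE 0.15, limma adjusted p 1.36e-04). Its neighbours *Cyp2c54* and *Cyp2c50* fell as well. *Cyp2c54* was at 143, 163 and 134 FPKM in the Ctrl libraries and 22.5, 32.4 and 25.1 FPKM in the LKO libraries (log2 fold change -2.43, adjusted p 2.69e-04). *Cyp2c50* was at 391, 436 and 376 FPKM in the Ctrl libraries and 91.5, 117 and 85.9 FPKM in the LKO libraries (log2 fold change -2.03, adjusted p 3.51e-04). In both the highest LKO liver was far below the lowest Ctrl liver.

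The other *Cyp2c* genes that fell changed less. *Cyp2c69* and *Cyp2c40* fell with log2 fold changes of -1.81 and -1.65, although their Ctrl livers differed among themselves, Ctrl 2 holding the most (14.6, 32.9 and 19.7 FPKM and 33.4, 77.8 and 48.5 FPKM). *Cyp2c67* fell from 275 ± 28.8 to 129.8 ± 31.9 FPKM and *Cyp2c70*, which hydroxylates bile acids to muricholic acids in mice, from 388 ± 95.4 to 192 ± 34.6 FPKM (SD, n = 3), with log2 fold changes of -1.10 and -0.99. *Cyp2c29*, the most abundant of the subfamily and an arachidonic acid epoxygenase, was at 633, 645 and 531 FPKM in the Ctrl libraries and 511, 218 and 225 FPKM in the LKO libraries. LKO 1 stayed just under the Ctrl livers while the other two LKO livers were well below them, and the adjusted p of 0.0367 (log2 fold change -1.04, SE 0.32) rose to between 0.0815 and 0.119 when any of Ctrl 1, Ctrl 2, Ctrl 3, LKO 2 or LKO 3 was left out. *Cyp2c44* and *Cyp2c68* had log2 fold changes of -0.49 and -0.49 and did not pass, with adjusted p 0.0739 and 0.0829.

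The 3 *Cyp2c* genes that rose were low in Ctrl liver. *Cyp2c55*, a CAR and PXR target that is abundant in the gut, was at 3.24, 2.23 and 2.21 FPKM in the Ctrl libraries and 22.9, 8.09 and 11.7 FPKM in the LKO libraries, with LKO 1 the highest (log2 fold change 1.99, SE 0.33, limma adjusted p 0.00531). *Cyp2c38* was at 5.08, 6.99 and 4.04 FPKM in the Ctrl libraries and 13.6, 15.7 and 11.2 FPKM in the LKO libraries and *Cyp2c39*, known for hydroxylating retinoic acid, at 0.225, 0.253 and 0.225 FPKM in the Ctrl libraries and 1.07, 1.77 and 1.24 FPKM in the LKO libraries. In both the groups were apart, with log2 fold changes of 1.20 and 0.93. *Cyp2c39* met the level filter only through its LKO livers. The pseudogene *Cyp2c53-ps* was at 0.399, 0.518 and 0.724 FPKM in the Ctrl livers and was listed at 0 in all 3 LKO livers, below the level for testing. *Cyp2c65* and *Cyp2c66* were at or below 0.0388 FPKM.

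The *Cyp2d* genes moved in 1 direction: of 9 tested, 8 fell, 0 rose and *Cyp2d22* did not pass. *Cyp2d9*, a male-biased testosterone hydroxylase and the most abundant of them, was at 896, 852 and 972 FPKM in the Ctrl libraries and 173, 369 and 233 FPKM in the LKO libraries. All LKO livers were well below the Ctrl livers, and the mean fell 3.51-fold (log2 fold change -1.87, SE 0.26, limma adjusted p 0.00284). *Cyp2d40* was at 73.4, 69.3 and 69.7 FPKM in the Ctrl libraries and 23.9, 11.3 and 9.38 FPKM in the LKO libraries, with LKO 1 nearest to the Ctrl livers, and showed the largest fall of the subfamily (log2 fold change -2.29, SE 0.30, limma adjusted p 0.00240). The other falls were those of *Cyp2d13* (log2 fold change -1.69), *Cyp2d12* (-1.55), the pseudogene *Cyp2d37-ps* (-1.36), *Cyp2d10* (-0.94), *Cyp2d11* (-0.84) and *Cyp2d26* (-0.61). *Cyp2d22* was at 96.5, 92.5 and 89.2 FPKM in the Ctrl libraries and 58.6, 80.6 and 77.1 FPKM in the LKO libraries, without overlap, and missed both the fold limit and the adjusted p (-0.37, 0.0621). With median-ratio scaling it had a log2 fold change of -0.77 and an adjusted p of 0.00348, so that all 9 then passed as lower.

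*Cyp2f2*, the naphthalene oxidising enzyme that marks periportal hepatocytes, was at 714, 786 and 846 FPKM in the Ctrl libraries and 499, 499.8 and 415 FPKM in the LKO libraries. It fell 1.66-fold without overlap (log2 fold change -0.73, SE 0.13, limma adjusted p 0.00711). *Cyp2u1*, a fatty acid hydroxylase found in many tissues, was at 10.5, 7.06 and 9.32 FPKM in the Ctrl libraries and 3.11, 2.25 and 3.19 FPKM in the LKO libraries. Its highest LKO liver lay well below its lowest Ctrl liver, with a 3.14-fold fall (log2 fold change -1.36, SE 0.17, limma adjusted p 0.00223). *Cyp2r1*, a vitamin D hydroxylase of the liver, was at 8.58 ± 0.818 FPKM in Ctrl and 7.57 ± 2.05 FPKM in LKO (SD, n = 3) and did not pass. Among the *Cyp2j* genes, which epoxidise arachidonic acid, 0 of 3 tested passed. *Cyp2j5*, the main one of liver, was at 173, 158 and 155 FPKM in the Ctrl libraries and 131, 119.8 and 121 FPKM in the LKO libraries, with all LKO livers below Ctrl and a log2 fold change of -0.38 that missed the fold limit (adjusted p 0.0227). It passed with median-ratio scaling (-0.78). *Cyp2j6* differed by 0.07 and *Cyp2j9* by -0.63 on the log2 scale.

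Of the 6 *Cyp3a* genes tested, 2 rose, 0 passed as lower and 4 did not pass. *Cyp3a11*, the main drug oxidising enzyme of this subfamily and the classic PXR target, was at 1742, 1429 and 1296 FPKM in the Ctrl libraries and 3296, 3110 and 2843 FPKM in the LKO libraries. It became the most abundant member in each LKO liver, with a 2.07-fold higher mean and no overlap (log2 fold change 1.06, SE 0.16, limma adjusted p 0.00430). With median-ratio scaling its log2 fold change was 0.66 and its adjusted p 0.0573, which does not pass. *Cyp3a44*, a female-biased gene, was at 15.3, 13.6 and 12.1 FPKM in the Ctrl libraries and 30.1, 29.2 and 28.0 FPKM in the LKO libraries, with tight groups far apart (log2 fold change 1.04, SE 0.11, limma adjusted p 0.00151), and it also passed with that scaling (0.66). *Cyp3a16* and *Cyp3a59* were higher without overlap but under the fold limit (log2 fold changes 0.52 and 0.57). *Cyp3a16* passed as higher with a pseudocount of 0.1 (0.83), with the deposited TPM (0.74) and without Ctrl 1 (0.61). *Cyp3a13* differed by 0.27, which was -0.12 with median-ratio scaling, and *Cyp3a25* by -0.43, which passed as lower with that scaling (-0.82, adjusted p 0.0273). *Cyp3a41a* was at 0.292, 0.261 and 0.0423 FPKM in Ctrl and 0.701, 0.688 and 0.770 FPKM in LKO and *Cyp3a57* was listed at 0 in Ctrl and at 0.0230, 0.740 and 1.03 FPKM in LKO, both under the filter. *Cyp3a41b* was listed at 0.

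The *Cyp4a* genes, whose products hydroxylate the omega end of fatty acids, rose in 4 of 6 tested members and fell in 1. *Cyp4a14* (NCBI Gene 13119, chr4:115486200-115496141) was at 88.3, 66.2 and 32.0 FPKM in the Ctrl libraries and 328, 445 and 326 FPKM in the LKO libraries. Every LKO liver was well above every Ctrl liver, and the mean rose 5.90-fold (log2 fold change 2.64, SE 0.35, limma adjusted p 0.00243). *Cyp4a10* was at 61.6, 57.6 and 46.2 FPKM in the Ctrl libraries and 120.2, 203 and 159 FPKM in the LKO libraries (log2 fold change 1.5, SE 0.20, limma adjusted p 0.00274). *Cyp4a31* was at 3.22, 2.66 and 2.86 FPKM in the Ctrl libraries and 21.6, 34.8 and 29.3 FPKM in the LKO libraries, a 9.80-fold rise (log2 fold change 2.89, SE 0.18, limma adjusted p 2.44e-04). *Cyp4a32* rose least, from 13 ± 1.67 to 24 ± 4.72 FPKM (SD, n = 3, log2 fold change 0.83), and did not pass with median-ratio scaling (0.45, adjusted p 0.0551). These 4 are known targets of PPAR alpha. The subfamily also holds a male-biased pair. *Cyp4a12a* was at 132, 161 and 173 FPKM in the Ctrl libraries and 74.3, 101 and 117 FPKM in the LKO libraries and fell (log2 fold change -0.68, SE 0.19, limma adjusted p 0.0266), close to the fold limit. It did not pass without Ctrl 2 (adjusted p 0.0884), Ctrl 3 (0.0973), LKO 1 (log2 fold change -0.50) or LKO 2 (0.0702), nor with the deposited TPM. *Cyp4a12b* was at 42.6, 48.4 and 69.4 FPKM in the Ctrl libraries and 36.3, 76.4 and 74.6 FPKM in the LKO libraries and did not pass (0.17, -0.22 with median-ratio scaling).

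Of the *Cyp4f* genes, omega hydroxylases of leukotrienes and tocopherols, 1 of 5 tested rose and 1 fell. *Cyp4f14*, the most abundant, was at 162, 182 and 171 FPKM in the Ctrl libraries and 124, 89.8 and 64.1 FPKM in the LKO libraries (log2 fold change -0.94, SE 0.22, limma adjusted p 0.0168). The LKO livers were all below the Ctrl livers, LKO 1 nearest, and adjusted p was 0.0649 without Ctrl 2, 0.0595 without Ctrl 3 and 0.057 without LKO 2. *Cyp4f16* was at 0.945, 1.01 and 1.18 FPKM in the Ctrl libraries and 3.63, 4.14 and 5.20 FPKM in the LKO libraries and rose 4.14-fold (log2 fold change 1.37, SE 0.14, limma adjusted p 0.00116). *Cyp4f13* was lower in every LKO liver (42.3 ± 1.36 to 28.5 ± 1.75 FPKM, SD, n = 3) with a log2 fold change of -0.55, just under the fold limit, while *Cyp4v3* at 153, 153 and 156 FPKM in the Ctrl libraries and 95.5, 103 and 105 FPKM in the LKO libraries was just over it (-0.60, adjusted p 0.00432). *Cyp4v3*, a fatty acid hydroxylase whose human counterpart underlies a corneoretinal dystrophy, was under the fold limit without LKO 1 (-0.56) and with the deposited TPM (-0.48). *Cyp4f15* and *Cyp4f17* did not pass (-0.37 and 0.16), nor did *Cyp4b1* (0.25, -0.11 with median-ratio scaling).

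The remaining 31 members were not tested in liver. Of these, 13 were listed at 0 in all 6 liver libraries and the highest value of the other 18 lay between 0.0106 and 1.59 FPKM, the latter in *Cyp1a1*.

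The members were also grouped by where and how they are known to be made. The counts below stand beside 23.9% of all tested genes that were higher in LKO liver and 3.5% that were lower. Of 7 pericentral genes, 5 fell (*Cyp2e1*, *Cyp2c29*, *Cyp2c37*, *Cyp2c50* and *Cyp2c54*), 1 rose (*Cyp2a5*) and *Cyp1a2* did not pass, with a median log2 fold change of -1.5. The periportal *Cyp2f2* fell as well. Of the male-biased *Cyp2d9*, *Cyp4a12a* and *Cyp4a12b*, 2 of 3 fell. Of 8 female-biased genes 5 were tested: *Cyp2a4*, *Cyp2b9* and *Cyp3a44* rose, *Cyp2c69* fell and *Cyp3a16* did not pass, although it did in the 3 alternatives given above. The summed level of the male-biased genes was 1061 to 1215 FPKM in Ctrl and 284 to 546 FPKM in LKO, and that of the female-biased genes 35.2 to 51.7 FPKM and 138 to 274 FPKM, without overlap in either. *Cyp2d9* held most of the male-biased sum, and *Cyp2a4* most of the female-biased sum in LKO, so these sums mainly follow single genes. Of all tested single genes, 53.0% lay above Ctrl without overlap in LKO liver and 8.1% below. Of 4 CAR targets, 2 rose (*Cyp2b10* and *Cyp2c55*) and 2 fell (*Cyp2c29* and *Cyp2c37*). Of the PXR targets *Cyp3a11* rose and *Cyp3a13* did not pass, and the 4 PPAR alpha targets rose together with a median log2 fold change of 2.07. With median-ratio scaling, where 9.78% of all tested genes were higher, 0 PXR targets and 3 PPAR alpha targets passed as higher. The counts of the other groups stayed the same with that scaling. Of the 3 aryl hydrocarbon receptor targets, *Cyp1a2* was tested and did not pass.

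Of 27 regulators of P450 genes 24 were tested, and 2 were higher and 5 lower, where 23.9% and 3.5% of all tested genes were. *Nr1i3*, which encodes CAR, was at 72.2, 73.0 and 74.6 FPKM in the Ctrl libraries and 33.3, 46.6 and 32.0 FPKM in the LKO libraries and fell (-0.97, adjusted p 0.00430). *Nr1i2*, which encodes PXR, had a log2 fold change of 0.52 and did not reach the fold limit, and *Ppara* differed by 0.09 (adjusted p 0.557). *Ahr* (0.89) and *Stat5a* (0.75) were higher, although both were under the fold limit with median-ratio scaling (0.52 and 0.40). *Nr0b2* (-1.39), *Cebpa* (-0.89), *Hlf* (-0.77) and *Tef* (-0.61) were lower, and *Hnf4a* differed by -0.07 (adjusted p 0.711). Among 6 redox partners *Por* passed, at 42.8, 63.2 and 71.3 FPKM in the Ctrl libraries and 104, 159 and 139 FPKM in the LKO libraries (log2 fold change 1.18, SE 0.23, limma adjusted p 0.00852), whereas *Cyb5a* differed by 0.00 (adjusted p 0.992). Among 12 genes of heme synthesis and breakdown *Hmox1*, the heme oxygenase that is induced by stress, passed as higher (6.68 ± 0.317 to 39.2 ± 11.8 FPKM, SD, n = 3, log2 fold change 2.34), and *Alas1*, the first enzyme of heme synthesis, did not (-0.43, adjusted p 0.623).

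Of 17 measured P450 genes of other families, 11 were tested, and 4 were higher and 3 lower, against the same 23.9% and 3.5% of all tested genes. The 3 that fell were *Cyp7b1* (106 ± 44.5 to 15.6 ± 8.78 FPKM, SD, n = 3, -2.79), *Cyp8b1* (189 ± 30.7 to 67.7 ± 16.7 FPKM, SD, n = 3, -1.49) and *Cyp27a1* (-0.62). Those that rose were *Cyp39a1* (0.91), *Cyp7a1* (0.84), *Tbxas1* (0.83) and *Cyp20a1* (0.76), and of these *Tbxas1* alone also passed with median-ratio scaling, where 9.78% of all tested genes were higher. Of the flavin monooxygenases, which also oxidise drugs, 2 of 4 tested were higher, *Fmo1* (0.73) and *Fmo2* (0.67), and neither passed with median-ratio scaling (0.34 and 0.40).

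The LKO livers were not alike in the P450s. Among the 15 members that rose, the LKO liver nearest to the Ctrl mean was LKO 1 in 10, LKO 3 in 4 and LKO 2 in 1, where over all 2622 genes that rose it was LKO 1 in 79.1%, LKO 2 in 15.4% and LKO 3 in 5.42%. Among the 22 that fell it was LKO 2 in 10, LKO 1 in 9 and LKO 3 in 3, where over all 384 genes that fell it was LKO 1 in 66.1%, LKO 2 in 27.1% and LKO 3 in 6.77%. LKO 1 also kept the most *Crif1* (5.40 FPKM, against 2.0 and 2.51). Without LKO 1, 16 members were higher, where 34.7% of all tested genes were, and 22 lower, where 4.75% were.

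Most members lie in clusters of neighbouring paralogs. The 10 *Cyp2d* genes lie on chr15:82370527-82794245, where 8 of 9 tested fell. The 16 *Cyp2c* genes lie on chr19:39007019-44029247, where 8 of 13 fell and 3 rose, *Cyp2c38* and *Cyp2c39* next to each other and *Cyp2c55* first in the cluster. The 15 members of chromosome 7 mix directions, with 5 of 9 higher (the *Cyp2a* and *Cyp2b* genes) and 2 lower (*Cyp2f2* and *Cyp2e1*). On chromosome 4, which holds the *Cyp2j* and *Cyp4a* genes, 4 of 10 tested were higher and 1 lower, and on chromosome 5, which holds the *Cyp3a* genes, 2 of 6 were higher.

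Such paralogs can share reads. Of the 53 tested members with a GENCODE transcript, 12 had more than 10% of their 100-base windows in the transcripts of another gene and 16 had none. *Cyp4a12a* shared 35.8% with *Cyp4a12b*, *Cyp2c69* 29.6% with *Cyp2c40*, *Cyp2a4* 11.2% with *Cyp2a5* and *Cyp4a32* 12.5% with *Cyp4a10*, and the split of reads between such genes is uncertain. *Cyp2c37* shared 3.3% with *Cyp2c50*, and *Cyp2b9* 1.18% with *Cyp2b13*. The untested *Cyp3a41a* and *Cyp3a41b* shared 88.4% of the windows of *Cyp3a41a*. *Cyp4x1* and its antisense RNA *Cyp4x1os* overlap in 8.59% of the windows of *Cyp4x1* and 18.4% of those of *Cyp4x1os*. Reads that lie within this overlap cannot be told apart without strand.

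In Ctrl mice 58 members were highest in liver, 11 in hypothalamus, 8 in iWAT and 2 in GM, and 7 were listed at 0 in every library of the study. A member at 0 in every Ctrl library but above 0 in LKO, such as *Cyp2b13*, was counted with liver, so fewer than 58 were seen to be highest there. Of 56 members tested across the 12 Ctrl libraries, 45 (80.4%) were at least 2-fold higher in liver than in each other tissue with limma adjusted p under 0.05, where 6.43% of all tested genes were. This share was largely fixed by the filter on low values: 37 of the 56 were tested in liver and in no other tissue and all 37 are among the 45, and of the 14 tested in liver and in another tissue 8 are. The summed P450 level was 11539 ± 297 FPKM in liver, 1606 ± 685 in iWAT, 99.4 ± 4.73 in hypothalamus and 65.9 ± 18.0 in GM (SD, n = 3). *Cyp2e1* carried most of the iWAT sum, at 813, 1266 and 2091 FPKM (mean 1390 FPKM, against 2494 FPKM in liver). *Cyp4b1* was higher in Ctrl iWAT (26.5 ± 3.74 FPKM) than in Ctrl liver (8.62 ± 0.679 FPKM), as were *Cyp4f16* (9.0 ± 0.953 and 1.05 ± 0.120 FPKM) and *Cyp1b1* (4.23 ± 1.07 and 0.0975 ± 0.0320 FPKM). In hypothalamus *Cyp2j9* led (24.2 ± 0.841 FPKM), followed by *Cyp2d22* (16.9 ± 0.626 FPKM) and *Cyp2j6* (9.03 ± 0.277 FPKM). *Cyp4x1*, known from the brain, was at 4.16 ± 0.921 FPKM there and listed at 0 in the Ctrl libraries of the other tissues.

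**Figure D4:**
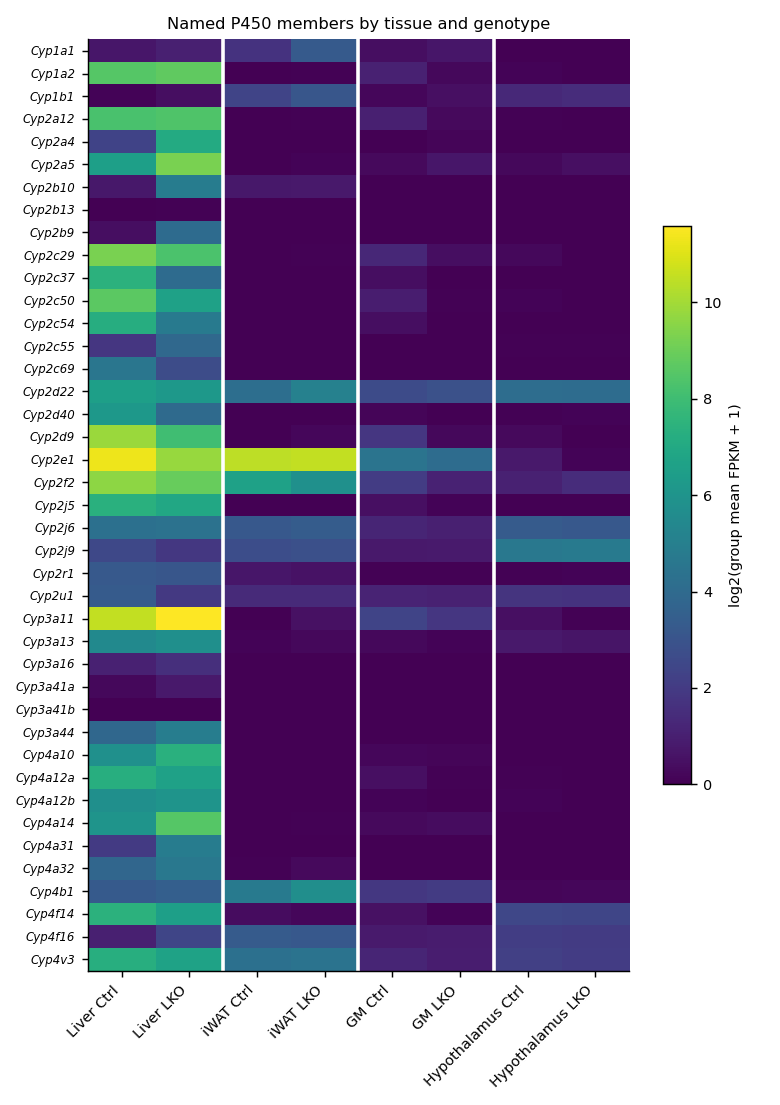
Group means of the named members as log2(FPKM + 1), by tissue and genotype (3 libraries per column), with the colour scale starting at 0. Most rows are brightest in the liver columns, and *Cyp2e1*, *Cyp2f2*, *Cyp2d22*, *Cyp2j6*, *Cyp4b1* and *Cyp4v3* are also seen in iWAT.

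In iWAT, a tissue at which Alb-Cre is not aimed, 14 members were tested and 0 passed with an adjusted p (0.0% of all 12288 tested genes did in either direction by limma). With an unadjusted p under 0.05 and 1.5-fold, 4 were higher, where 1.95% of all tested genes were, and 1 lower, where 1.29% were. The groups did not overlap in 7 members with LKO above Ctrl (9.76% of all tested genes) and in 1 with LKO below (11%). *Cyp1a1*, an aryl hydrocarbon receptor target, was at 1.97, 1.88 and 2.78 FPKM in the Ctrl libraries and 15.0, 5.5 and 6.18 FPKM in the LKO libraries. Every LKO library lay above every Ctrl library, LKO 1 by the most (log2 fold change 1.51, limma unadjusted p 0.00342, adjusted p 0.136). *Cyp1b1*, another of its targets, was at 3.59, 5.47 and 3.63 FPKM in the Ctrl libraries and 6.27, 7.47 and 9.31 FPKM in the LKO libraries (log2 fold change 0.74, adjusted p 0.157). *Cyp4b1* was at 22.6, 26.9 and 30.0 FPKM in the Ctrl libraries and 43.6, 47.7 and 64.4 FPKM in the LKO libraries (log2 fold change 0.93, adjusted p 0.103). In both the groups were apart.

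*Cyp2d22* was at 17.1, 15.8 and 18.0 FPKM in the Ctrl libraries and 24.3, 37.3 and 36.9 FPKM in the LKO libraries in iWAT (log2 fold change 0.89, limma adjusted p 0.109). *Cyp2f2* was the one with a lower level, at 67.2, 91.4 and 135 FPKM in the Ctrl libraries and 40.9, 61.0 and 65.4 FPKM in the LKO libraries, where the highest LKO library was just under the lowest Ctrl library (log2 fold change -0.77, adjusted p 0.275). *Cyp2e1* was at 813, 1266 and 2091 FPKM in the Ctrl libraries and 995, 1888 and 1567 FPKM in the LKO libraries, with wide and overlapping groups. With all 24 libraries in 1 fit, 4 members passed as higher in iWAT with an adjusted p, where 1.65% of all tested genes did, and without iWAT LKO 1, 2 did, where 0.635% did. Beside these values, the summed adipocyte markers were 20903 to 24568 FPKM in Ctrl and 25729 to 27052 FPKM in LKO, the hepatocyte markers 16.8 to 28.6 and 37.8 to 62.9, the monocyte and neutrophil markers 546 to 1424 and 570.0 to 725, the myofibre markers 55.6 to 524 and 34.3 to 834, and the blood markers 226 to 606 and 41.7 to 853 FPKM. The endothelial markers summed to 63.5 to 108.1 FPKM in Ctrl and 108.2 to 127.2 FPKM in LKO. Those of Kupffer cells (24.7 to 75.8 and 27.0 to 39.4 FPKM) and stellate cells (1488 to 3055 and 1533 to 2036 FPKM) overlapped. The part of all these markers in the iWAT values was not tested.

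**Figure D5:**
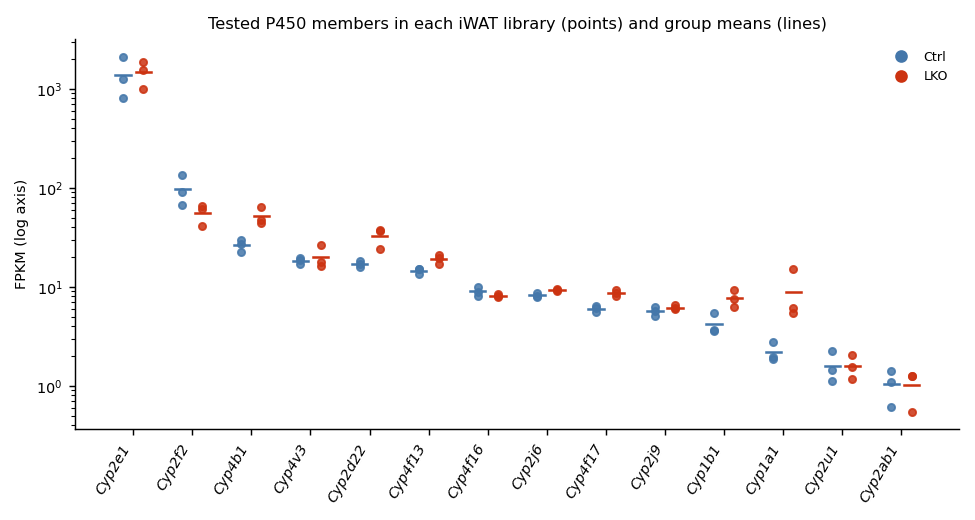
FPKM of the 14 tested members in each iWAT library on a log axis, Ctrl in blue and LKO in red, with lines at the group means. The points of *Cyp1a1*, *Cyp1b1*, *Cyp2d22* and *Cyp4b1* are apart with LKO above, those of *Cyp2f2* with LKO below, and those of *Cyp2e1* overlap.

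In GM 10 members were tested and 0 passed with an adjusted p by limma (0.0% of all tested genes did in either direction). With 1.5-fold and an unadjusted p under 0.05, 0 were higher (0.579% of all tested genes) and 1 lower (0.322%). The groups did not overlap in 1 member with LKO above Ctrl, *Cyp2d22* (4.38% of all tested genes), and in 0 with LKO below (7.2%). The lower member was *Cyp2f2*, at 3.94, 1.28 and 4.29 FPKM in the Ctrl libraries and 2.02, 0.452 and 1.05 FPKM in the LKO libraries, whose groups overlapped. *Cyp2e1* was at 24, 25.7 and 13.8 FPKM in the Ctrl libraries and 31.8, 7.92 and 9.30 FPKM in the LKO libraries and *Cyp3a11* at 7.89, 0.811 and 3.68 FPKM in the Ctrl libraries and 4.29, 0.752 and 2.53 FPKM in the LKO libraries, also with overlap. These GM libraries held hepatocyte markers at a summed 26.6 to 359 FPKM in Ctrl and 17.3 to 129 FPKM in LKO and adipocyte markers at 234 to 526 and 259 to 685 FPKM, against 91107 to 101420 and 89948 to 98781 FPKM of myofibre markers. Their part in the GM values was not tested.

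In hypothalamus 16 members were tested, and 0 differed 1.5-fold with an adjusted or an unadjusted limma p under 0.05, while the unadjusted criterion took 0.166% of all tested genes as higher and 0.166% as lower. The groups did not overlap in 2 members with LKO above Ctrl (4.74% of all tested genes) and in 1 with LKO below (4.97%). With an adjusted p, 0.0% of all genes were higher and 0.0217% lower. *Cyp2j9* was at 25.2, 23.6 and 23.8 FPKM in the Ctrl libraries and 29.1, 23.4 and 27.6 FPKM in the LKO libraries, *Cyp2d22* at 16.2, 17 and 17.4 FPKM in the Ctrl libraries and 14.5, 16.9 and 16.3 FPKM in the LKO libraries and *Cyp2j6* at 9.27, 8.73 and 9.09 FPKM in the Ctrl libraries and 8.33, 8.47 and 8.02 FPKM in the LKO libraries. Of these *Cyp2j6* was lower in each LKO library by a small margin (log2 fold change -0.11) and the other two overlapped. The neuron markers summed to 1872 to 2519 FPKM in Ctrl and 2176 to 2252 FPKM in LKO.

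The effect of LKO differed between tissues in 36 of 62 members (58.1%) by the limma F test over the 3 interactions, adjusted p under 0.05, where 33.5% of all tested genes did. Of the 62, 41 were tested in liver and in no other tissue, and 27 of the 36 were among these, whose interaction repeats their liver difference against levels near 0, so that the share says nothing of the members as a group. Of the 14 tested in liver and in another tissue, 8 differed. *Cyp2u1* fell in LKO liver and its log2 fold changes were 0.01 in iWAT, -0.10 in GM and -0.03 in hypothalamus. *Cyp2e1*, the member with high levels in both liver and iWAT, had log2 fold changes of -1.5 in liver and 0.15 in iWAT.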

How the data were processed

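Per the processing notes of the submitters, reads were handled with FastQC 0.11.5, Trimmomatic 0.32, HISAT2 2.0.5, Bowtie2 2.2.6, STAR 2.5.2b and StringTie 1.3.3b on mm10, with no role or order given. Libraries were TruSeq RNA v2, which does not mark strand, read as 100-base paired ends. The authors deposited FPKM per gene in 1 joined table, and per library a table of coverage, FPKM and TPM. Library depth, inferred from the deposited coverage over FPKM, was 4.45 to 8.09 gigabases, and counting error could not be given since no counts were used.

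Each tissue was fitted with limma 3.58.1 in R 4.3.3 (lmFit, eBayes with trend) on log2(FPKM + 1), 3 LKO against 3 Ctrl libraries, for genes at 1 FPKM or more in at least 3 of the 6 libraries. The fold changes understate changes of low genes. Adjusted p-values are Benjamini-Hochberg over all genes tested. Differences between tissues were fitted over all 24 libraries, taken as independent, and levels in Ctrl tissues over the 12 Ctrl libraries. The fits were tested on simulated data. Alternatives were a pseudocount of 0.1, no filter, the deposited TPM, which the authors scaled to a fixed sum, median-ratio scaling, all libraries in 1 fit, a replicate block and leaving out each library. Python 3.11.15 made the tables and plots.

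Members and gene lists were chosen with earlier results of these data known. Named in each subfamily were the member with the highest Ctrl level, the largest changes that passed and a fixed set of well-known members. In other tissues these were the 3 highest members and those past the unadjusted criterion, and from each other list up to 3 that passed. Some further members were named after their values were seen. Transcript windows came from GENCODE vM21.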

Additional observations from a re-analysis of the deposited data

Results flagged for a closer look

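The effect of LKO on single members differed between liver and another tissue by the interaction contrast of the limma fit over all 24 libraries (adjusted p under 0.05), among the 11 members tested in both liver and iWAT, the 10 in both liver and GM and the 11 in both liver and hypothalamus. Each value is the log2 fold change in the other tissue minus that in liver. The share of all genes called by these single contrasts was not taken, so the number of members named says nothing of the members as a group. By the F test over the 3 interactions 8 of the 14 members tested in liver and another tissue passed. These are fewer than the members named here, so that not all of those passed the F test. Against iWAT it was 1.65 for *Cyp2e1*, 1.37 for *Cyp2u1*, 1.26 for *Cyp2d22*, 0.92 for *Cyp4f13*, 0.74 for *Cyp2j9*, 0.70 for *Cyp4v3*, 0.68 for *Cyp4b1* and -1.49 for *Cyp4f16*. Against GM it was 1.26 for *Cyp2u1*, 0.63 for *Cyp2d22* and 0.48 for *Cyp4f13*. Against hypothalamus it was 1.33 for *Cyp2u1*, 1.11 for *Cyp2f2*, 0.88 for *Cyp4f14*, 0.76 for *Cyp2j9*, 0.50 for *Cyp4f13* and -1.48 for *Cyp4f16*. *Cyp2u1* and *Cyp4f13* differed from liver in each of the other tissues, and *Cyp4f16* was the member with a negative difference. With 3 libraries per group no single library was tested for standing apart.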

How the results depend on the processing

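Over the alternatives, the number of members higher in LKO liver ranged from 14 to 17 when 1 library was left out (14.0% to 34.7% of all tested genes) and was 18 of 57 with the deposited TPM (36.9%) and 13 with median-ratio scaling (9.78%). The number lower ranged from 16 to 22 (2.46% to 4.75%) and was 19 (2.88%) and 29 (7.53%). In iWAT 4 members passed as higher with all 24 libraries in 1 fit, and 0 to 2 when 1 library was left out, the 2 without LKO 1. The ratio of the summed liver level, LKO over Ctrl, was 0.904 with the deposited TPM and 0.612 with median-ratio scaling, and 0.809 to 0.848 when 1 library was left out. The number of members whose LKO effect differed between tissues was 28 with a pseudocount of 0.1 and 41 with median-ratio scaling, and ranged from 33 to 49 when 1 library was left out, the 49 without GM Ctrl 2. Signs turned in 5 named members that had not passed. With median-ratio scaling the log2 fold changes were -0.29 for *Cyp2a12*, -0.12 for *Cyp3a13*, -0.22 for *Cyp4a12b* and -0.11 for *Cyp4b1*. *Cyp1a2* was at 0.10 with the deposited TPM and ranged from -0.45 to 0.61 when 1 library was left out, and *Cyp4a12b* ranged from -0.007 to 0.52. The cause was not tested. Of the 33 named members tested in liver, 19 kept direction and side of the threshold in each alternative run.

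Same-numbered Ctrl and LKO libraries did not deviate together in each pair: the correlations of their deviations were 0.154, 0.028 and 0.036 in liver, 0.302, -0.124 and 0.205 in iWAT, 0.354, 0.050 and 0.163 in GM and -0.135, 0.140 and 0.086 in hypothalamus. With 3 libraries per group these correlations can neither show nor exclude a pairing, and the main fits took the libraries as unpaired. With a replicate block 15 members were higher (24.1% of all tested genes) and 23 lower (3.61%) in liver, 0 passed in the other tissues, 38 differed between tissues and 45 were higher in Ctrl liver than in each other tissue.

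Depth was inferred and not counted, so members near 1 FPKM, among them *Cyp2b9*, *Cyp2b10* and *Cyp4f16* in Ctrl liver, have an unknown counting error. An exact permutation test of 3 against 3 libraries cannot go below p = 0.1.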
